A study of Rattus norvegicus with 2 samples.

Results

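The genes described here encode the protein subunits of the mitochondrial ribosome. They were taken as the rat genes with the symbol Mrpl (large subunit) or Mrps (small subunit) followed by a number that had a gene probe on both arrays. The rat gene annotation holds 78 protein-coding genes with such a symbol, and those without a usable matched probe are not described. The rule gave 66 genes with 77 probes, of 15159 named genes with a probe, and divided them into 42 of the large and 24 of the small subunit. Of these, 65 genes were measured, which means that every retained spot of at least 1 probe was well above background on both arrays, and the remaining gene, Mrpl47, met this on the Pla2g4c siRNA array only. RNA came from RMT-1 clone E4, a single clone of a rat mammary tumour cell line. One group received a negative control siRNA and the other an siRNA against Pla2g4c, which encodes a cytosolic phospholipase A2, in both cases by transient transfection. There was 1 array per group, so no value has a replicate check and no test across samples was possible. How long after transfection the RNA was taken was not stated in the labels.

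Mitochondrial ribosomes sit in the mitochondrial matrix and translate the few messenger RNAs that the mitochondrial genome encodes, all for membrane subunits of the respiratory chain and ATP synthase. Their ribosomal RNAs are made inside the organelle, whereas every ribosomal protein is encoded in the nucleus, made in the cytosol and imported. Some of these proteins have counterparts in bacterial ribosomes, and others were gained in the mitochondrial lineage. Factors of the NRF1, ETS (GABPA) and YY1 families are known to act on promoters of nuclear genes for mitochondrial proteins.

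The promoter letters of 4 members are shown because they include the 3 lowest members described below (Mrps27, Mrpl12 and Mrpl58) and the highest member of the small subunit (Mrps5). They are RefSeq sequences of build GRCr8, read 5′ to 3′ on the strand of the gene, and cover only bases outside annotated genes. For Mrps27 these were the 63 bases between its own gene and the neighbouring Ptcd2, and for the others the 250 bases before the start. Capitals mark matches, on either strand, to the motifs named further on.
Mrps27, chr2:32474115-32474177, plus strand: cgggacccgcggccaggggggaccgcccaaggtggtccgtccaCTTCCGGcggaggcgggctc
Mrpl12, chr10:106256496-106256745, plus strand: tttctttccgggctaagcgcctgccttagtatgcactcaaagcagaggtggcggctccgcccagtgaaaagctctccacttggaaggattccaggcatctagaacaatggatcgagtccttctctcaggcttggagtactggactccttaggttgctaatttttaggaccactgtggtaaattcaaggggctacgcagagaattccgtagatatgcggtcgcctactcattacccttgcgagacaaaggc
Mrpl58, chr10:101145092-101145341, plus strand: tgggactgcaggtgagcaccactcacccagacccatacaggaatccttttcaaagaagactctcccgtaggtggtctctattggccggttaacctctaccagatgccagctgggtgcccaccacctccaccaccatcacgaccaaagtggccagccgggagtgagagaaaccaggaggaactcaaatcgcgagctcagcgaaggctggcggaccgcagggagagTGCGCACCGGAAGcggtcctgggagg
Mrps5, chr3:135274083-135274332, plus strand: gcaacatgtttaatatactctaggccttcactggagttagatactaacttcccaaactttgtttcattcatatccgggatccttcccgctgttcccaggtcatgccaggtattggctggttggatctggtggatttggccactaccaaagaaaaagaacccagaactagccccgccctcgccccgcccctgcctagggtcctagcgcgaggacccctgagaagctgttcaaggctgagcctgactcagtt
In the Mrps27 interval the capitals are a match to the ETS motif. In Mrpl58 they are a match to the NRF1 short motif followed directly by one to the ETS motif. The printed bases of Mrpl12 and Mrps5 held no match. The full promoter entry of Mrps27 also held 1 match to the YY1 motif, outside the printed bases.

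Signals are in the arbitrary units of the scanner software. The array of the Pla2g4c siRNA was the brighter, with a 75th percentile of 1105 over gene spots against 852 on the control array, and 0 gene spots were saturated on either array. Each difference below is the control array's log2 value subtracted from that of the Pla2g4c siRNA array, after each array was scaled to its 75th percentile. Its ± is the software's error of both signals, which covers technical error within the arrays and was 0.20 to 0.21 for the members. It was averaged over spots and not reduced by their number, so for the members it acts nearly as a fixed cutoff. Its median over all measured genes was also 0.20. No probe was matched to Pla2g4c, so the knockdown itself was not checked. Of 8 epithelial markers 7 were well above background on both arrays, as were 2 of 5 mesenchymal markers. Of the leukocyte genes, Cd68 (225.8 and 207.4) and Csf1r (21.15 and 24.96) were well above background on both, and Ptprc and Cd3e on neither.

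The mitochondrial ribosomal protein genes as a group were centred where all genes were. Their median difference was -0.01 over 65 measured members, with 33 below 0 and 32 above, and the median over all 9026 measured named genes was also -0.01, with 51.0% below 0. The middle 50% of members spanned 0.44 (log2) against 0.52 for all genes. At least 1.5-fold lower were 4 members (6.15%), against 10.3% of all genes, and 0 were at least 1.5-fold higher, against 8.69% of all genes. At 1.3-fold, 12 members were lower, against 18.4% of all genes, and 5 higher, against 16.5%. In 32 members (49.2%) the difference was smaller than its own error, against 42.9% of all genes.

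**Figure D1:**
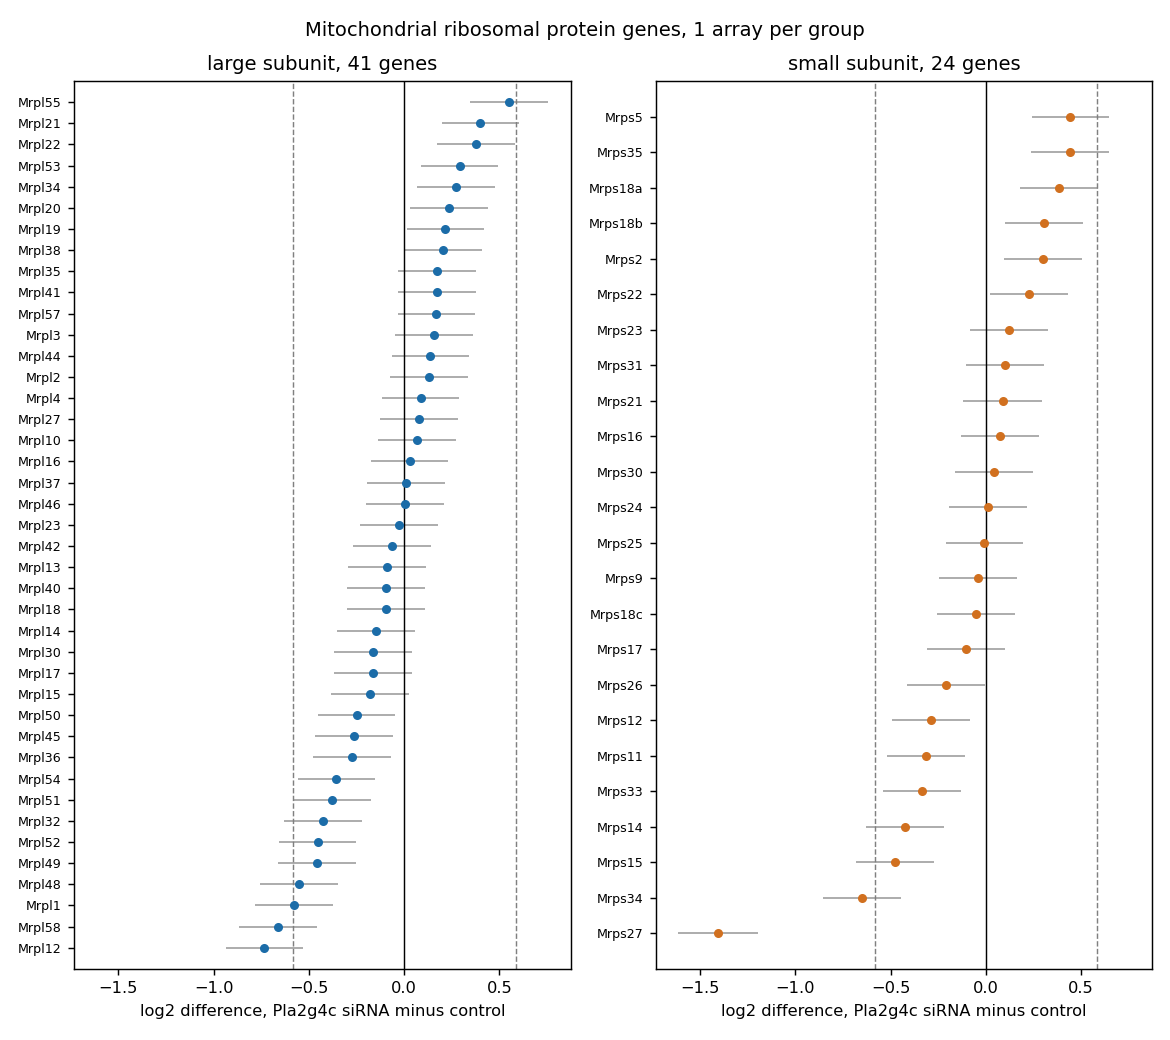
Log2 difference between the Pla2g4c siRNA array and the control array for each of the 65 measured genes, by subunit, ordered by value. Points are genes, horizontal bars the scanner software's error, and dashed lines mark 1.5-fold. Mrps27 stands alone at -1.41, and 61 genes lie between the dashed lines.

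The medians of the subunits lay close together, and their difference could not be tested with 1 array per group. The large subunit had a median of -0.03 over 41 members, 21 of them below 0, and ranged from -0.73 to 0.55. The small subunit had a median of 0.00 over 24 members, 12 of them below 0, and ranged from -1.41 to 0.44. The middle 50% spanned 0.43 in the large and 0.44 in the small subunit. Mrps30 and Mrps18a carry small subunit symbols but are placed in the large subunit of the solved mammalian mitoribosome. With both moved there the medians were 0.01 for the large and -0.02 for the small subunit, so that the sign of their small gap turned.

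Mrps27, a mitochondria-specific small subunit protein of the pentatricopeptide repeat family, was the member that stood apart. It read 231.9 with the control siRNA and 113.5 with the Pla2g4c siRNA. The 2 spots read 226.3 and 237.5 on the first and 113.5 and 113.4 on the second, so the spots of the arrays did not overlap even before scaling. The difference was -1.41 ± 0.21, or 2.65-fold lower, and the next lowest member was at -0.73. It was the 1 member at least 2-fold lower, where 3.05% of all genes were, and 0 members were at least 2-fold higher, against 2.91% of all genes. Mrps27 was represented by a single probe, so no second probe could be set beside it. With normexp background correction its difference was -1.10.

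The others at least 1.5-fold lower were Mrpl12, Mrpl58 and Mrps34. Mrpl12, the stalk protein through which translation factors are recruited and which also binds the mitochondrial RNA polymerase, read 18235 with the control siRNA and 14232 with the Pla2g4c siRNA, a difference of -0.73 ± 0.20. Mrpl58, a peptidyl-tRNA hydrolase that frees stalled mitoribosomes, read 9556 and 7844, a difference of -0.66 ± 0.20. Mrps34, a mitochondria-specific protein of the small subunit, read 8312 and 6868, a difference of -0.65 ± 0.20. These 3 genes, with Mrps27, were dimmer on the Pla2g4c siRNA array before scaling, even though that array was the brighter. So were other members, Mrpl1, Mrpl48, Mrpl49, Mrps15 and Mrps14 among them, and 53 of the 65 members were brighter on it. The share of all genes brighter on it was not counted. Mrpl12, Mrpl58 and Mrps34 lay between -0.52 and -0.57 under quantile normalization and cyclic loess, which is inside 1.5-fold. When the arrays were scaled to spike-in RNAs, these 3 lay between -0.10 and -0.18.

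Just inside 1.5-fold were Mrpl1 and Mrpl48 of the large subunit. Mrpl1, the protein of the mobile stalk next to the exit site for transfer RNA, differed by -0.58 ± 0.20, with signals of 2060 and 1790. Mrpl48 differed by -0.55 ± 0.20, with signals of 7055 and 6247, and Mrpl49 by -0.46 ± 0.20, with 1137 and 1074. Of the small subunit, Mrps15 read 1023 and 953 (-0.48 ± 0.20) and Mrps14 read 412 and 399 (-0.42 ± 0.20). Mrps33 read 6512 and then 6687, which after scaling was a difference of -0.34 ± 0.20. For Mrps33 the unscaled signal was the higher on the Pla2g4c siRNA array, so the direction of its difference comes from the scaling. The same holds for other members below 0, Mrpl45, Mrps12, Mrps11 and Mrpl54 among them.

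At the upper end the measured values stopped short of 1.5-fold in the main processing. Mrpl55, a large subunit protein, was the highest member, with signals of 3542 and 6721 and a difference of 0.55 ± 0.20, and its 2 spots gave 0.46 and 0.64. It passed 1.5-fold under quantile normalization (0.61), cyclic loess (0.64) and spike-in scaling and in the deposited values (0.68). Mrps5, which lines the entry of the messenger RNA, read 338.7 and 597.1 (0.44 ± 0.20). Mrps35 read 1675 and 2949 (0.44 ± 0.20). Both rested on 10 spots per array, and every spot of the pair was above 0, from 0.29 to 0.61 for Mrps5 and from 0.38 to 0.51 for Mrps35. 

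Below them came Mrpl21 (868.9 and 1489, 0.40 ± 0.20), Mrpl22, which lines the peptide exit tunnel (4137 and 6967, 0.38 ± 0.20), and the large subunit proteins Mrpl53 (5407 and 8582, 0.29 ± 0.20) and Mrpl34 (4147 and 6493, 0.27 ± 0.20). In the small subunit the next were Mrps18a (3779 and 6396, 0.38 ± 0.20), Mrps18b (574.4 and 920.5, 0.30 ± 0.20) and Mrps2 (223.8 and 357.4, 0.30 ± 0.21). Each of these differences was under 2 of its errors. In all, 11 members (lower) and 3 members (higher: Mrpl55, Mrps5 and Mrps35) exceeded 2 errors, against 15.3% and 14.1% of all genes in those directions.

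Mrpl47 was dim. Its spots read 22.21 and 13.06 with the control siRNA, the second not well above background, and 40.42 and 42.13 with the Pla2g4c siRNA. Both spots were thus brighter with the Pla2g4c siRNA, and no fold is given. With no filter on dim probes Mrpl47 was the 1 member at least 1.5-fold higher, where 8.42% of all genes were. A second probe of Mrpl50 and one of Mrpl30 stayed below the background limit in both samples, and both genes were measured through their other probe.

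**Figure D2:**
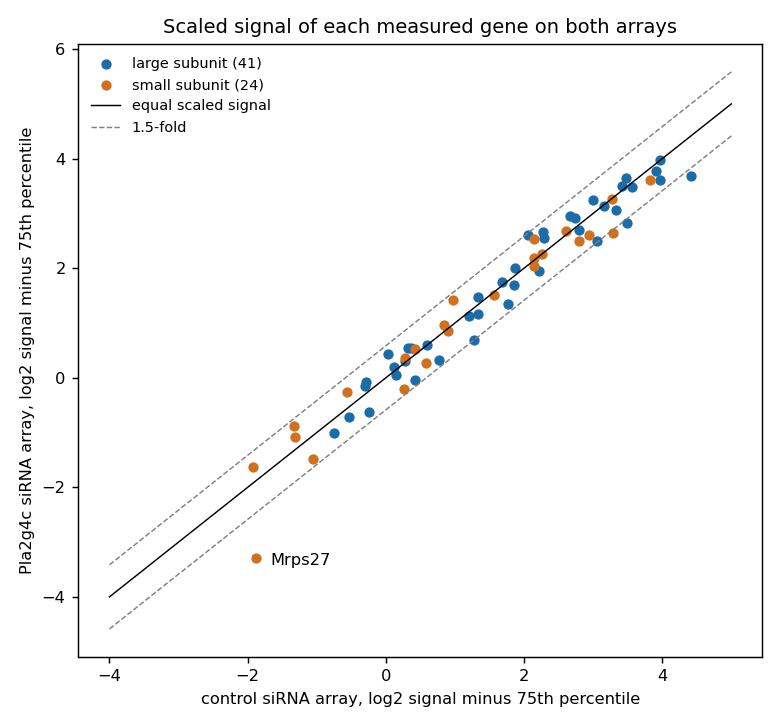
Scaled log2 signal of the 65 measured genes with the control siRNA (horizontal) and the Pla2g4c siRNA (vertical), coloured by subunit. The solid line marks equal signal and the dashed lines 1.5-fold; most points lie along the solid line and Mrps27 lies well below it.

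Spots and probes of the same gene give the technical spread. For 50 of the 65 members the scaled spots of the arrays did not overlap on any measured probe, against 80.8% of all genes, and 47 members had 2 spots per array. A probe with 1 spot per array passes by construction, and Mrpl50, Mrpl30, Mrps22 and Mrpl10 had only such probes. How many of all genes had such probes was not counted. Of 9 members with 2 measured probes, 6 had both on the same side of 0, and those probes differed from each other by 0.11 or less. The exceptions were Mrpl35 (-0.02 and 0.37), Mrpl10, the protein that anchors the Mrpl12 stalk (-0.10 and 0.23), and Mrps21 (-0.04 and 0.22). Of the members, 21 have a named pseudogene in the RefSeq annotation, and 0 pseudogenes had a probe of their own. Whether pseudogene transcripts reach these probes was not tested.

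Proteins with a counterpart in bacterial ribosomes and proteins specific to mitochondria had like medians. The first class had a median of -0.01 over 36 measured members and the second of -0.01 over 29. Of the 4 members at least 1.5-fold lower, 3 were mitochondria-specific (Mrps27, Mrpl58 and Mrps34) and 1 was shared with bacteria (Mrpl12). These were 10.3% of the mitochondria-specific and 2.78% of the shared members, against 10.3% of all genes. Members that have been linked to cell death in other systems, Mrpl41 (0.17 ± 0.20) and Mrps30 (0.04 ± 0.20), were within their error of 0. These and the next pair were picked for their roles after the values were seen. Mrpl45, which holds the ribosome to the inner membrane beside the exit tunnel, was at -0.26 ± 0.20, and Mrps12, a protein of the decoding centre, at -0.29 ± 0.20. Mrpl37 and Mrpl14 had signals of 13317 and 17357 and of 12851 and 15046, and differed by 0.01 ± 0.20 and -0.15 ± 0.20.

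Subunits of the same particle that carry other symbols were all above 0. The GTP-binding small subunit protein Dap3, first known as a mediator of cell death, differed by 0.39 ± 0.20, with signals of 1431 and 2438, and Gadd45gip1, a protein at the exit tunnel of the large subunit, by 0.43 ± 0.20, with 4088 and 7160. Chchd1 (0.18 ± 0.20), Ptcd3, a pentatricopeptide repeat protein at the entry of the messenger RNA (0.10 ± 0.20), and Aurkaip1 (0.08 ± 0.20) were within their errors. None of the 5 reached 1.5-fold, where 10.3% of all genes were lower and 8.69% higher. Their median was 0.18, and 32 of 65 Mrpl and Mrps genes were above 0.

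Among proteins that work with the mitoribosome, differences went both ways. Of 10 measured translation factors (14 listed) the median was -0.09. At least 1.5-fold lower was 1 (10.0%) and 0 were higher, against 10.3% and 8.69% of all genes. The release factor Mtrf1l was lowest (-0.75 ± 0.20), followed by Oxa1l, the insertase that receives the new chains (-0.53 ± 0.20). The elongation factor Gfm1 (0.19 ± 0.20) and the methionyl-tRNA formyltransferase Mtfmt (0.32 ± 0.20) were highest. Of 21 measured assembly and ribosomal RNA modification genes (25 listed) the median was 0.05. Against 10.3% and 8.69% of all genes, 1 (4.76%) was at least 1.5-fold lower and 1 (4.76%) higher. These were the pseudouridine synthases Trub2 (-0.65 ± 0.20) and Rpusd3 (1.07 ± 0.21). Rpusd3 had signals of 86.38 and 236 and was the 1 gene past 2-fold among the lists in this and the next paragraph. The ribosomal RNA methyltransferases Tfb1m (-0.43 ± 0.21) and Nsun4 (0.55 ± 0.21) were the next at either end.

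Mitochondrial aminoacyl-tRNA synthetases and the amidotransferase had a median of 0.17 over 16 measured members (20 listed), with 11 above 0. The 5 below 0 were 31.2%, against 51.0% of all genes. At least 1.5-fold higher was 1 (6.25%), against 8.69% of all genes, and 0 were lower, against 10.3%. Vars2 was 1.52-fold higher (0.60 ± 0.21), followed by Cars2 (0.43 ± 0.20), and Ears2 (-0.47 ± 0.21) and Nars2 (-0.38 ± 0.21) were lowest. In mitochondrial transcription and RNA stability the median was -0.02 over 7 genes. The termination factor Mterf1 differed by -0.63 ± 0.20. Tfam, which packages mitochondrial DNA and takes part in its transcription (-0.10 ± 0.20), Lrpprc (0.07 ± 0.20) and the polymerase Polrmt (0.18 ± 0.20) were within their errors. Of 8 measured regulators of nuclear genes for mitochondria (9 listed) the median was -0.12. Of them 0 reached 1.5-fold, where 10.3% of all genes were lower and 8.69% higher. The coactivator Pprc1 (-0.55 ± 0.20) and Myc (-0.38 ± 0.20) were lowest, Ppargc1b (0.15 ± 0.21) and Esrra (0.11 ± 0.20) highest, and Nrf1 (-0.06 ± 0.20), Gabpa (-0.16 ± 0.21) and Yy1 (-0.18 ± 0.20) lay within their errors of 0. The last 3 were picked for the motifs described further on, after their values were seen.

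The mitochondrial and the cytosolic ribosomal proteins lay apart. All 73 measured cytosolic ribosomal proteins were below 0, against 51.0% of all genes, with a median of -0.65. At least 1.5-fold lower were 50 of them (68.5%), against 10.3% of all genes. The mitoribosomal median lay 0.64 above the cytosolic one. All 73 were also below 0 with normexp, with median scaling and in the deposited values, but 57 after quantile normalization, 67 after cyclic loess and 56 after spike-in scaling. Of 73 measured oxidative phosphorylation subunits, whose complexes include the products of mitochondrial translation, 59 (80.8%) were below 0, with a median of -0.16. Of all genes 51.0% were below 0. At least 1.5-fold lower were 3 (4.11%) and higher 1 (1.37%), against 10.3% and 8.69% of all genes. After quantile normalization 26 were below 0 and after cyclic loess 27, where 48.1% and 48.0% of all genes were. In the deposited values 38 were, against 37.2% of all genes, and after spike-in scaling 4, against 11.3%. The size of these gaps moved with the processing, and for the oxidative phosphorylation subunits the direction against all genes turned as well. Under quantile normalization the mitoribosomal median lay 0.12 above the cytosolic one and under cyclic loess 0.31, and the oxidative phosphorylation median was then 0.08 and 0.06. The oxidative phosphorylation median minus that of all genes was -0.15 in the main processing, but 0.07 under quantile normalization and 0.03 under cyclic loess. Spike-in scaling, which shifts every gene alike, put the oxidative phosphorylation median at 0.39 and left its gap to all genes at -0.15. The families also differed in brightness. Their median scaled log2 signals were 6.96 (cytosolic), 3.99 (oxidative phosphorylation) and 1.56 (mitoribosomal). Across the 73 cytosolic genes the difference followed the signal with Pearson's r of 0.50 and across the 73 oxidative phosphorylation genes with r of -0.37. The part of signal intensity in the gap was not tested.

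**Figure D3:**
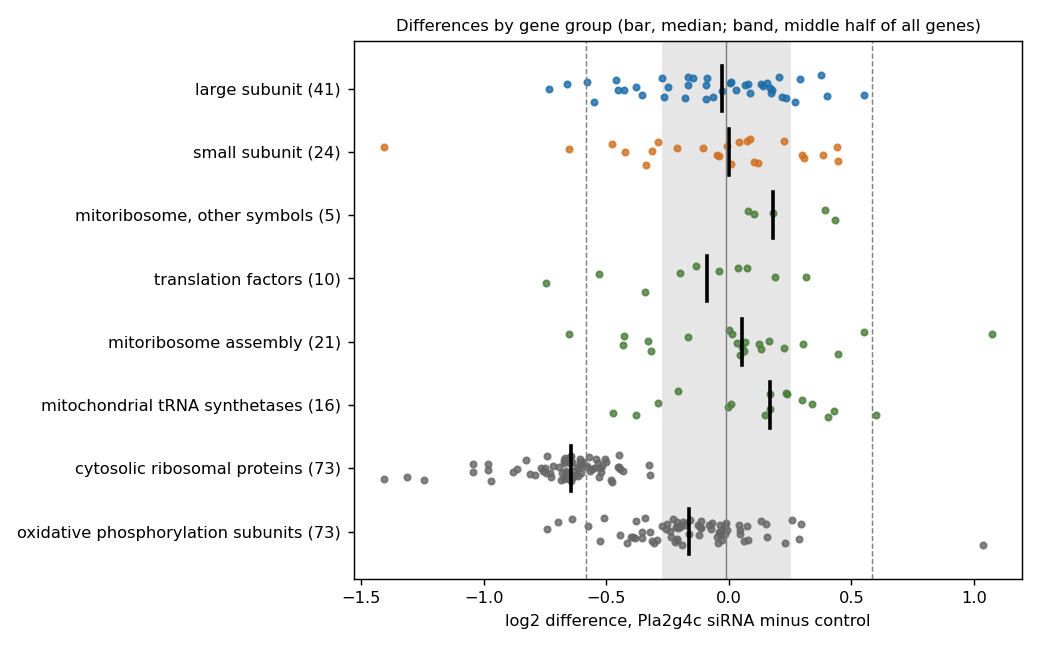
Log2 difference of each measured gene (points) by group, with the number of genes in brackets, black bars at the group median and a grey band for the middle 50% of all 9026 genes. Dashed lines mark 1.5-fold. The medians of the subunits, -0.03 and 0.00, lie inside the band, with genes spread to both sides of it, and the cytosolic ribosomal proteins lie to its left with a median of -0.65. Vertical scatter within a row carries no value.

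Within the mitoribosomal genes the difference did not follow the signal. Across the 65 members Pearson's r between the difference and the mean scaled signal was 0.02 and Spearman's rho -0.12, and without Mrps27 r was -0.17. Across all 9026 genes r was -0.08 and rho -0.05. These are descriptions over genes that share 2 arrays, and genes are not independent replicates.

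The centre of the mitoribosomal genes stayed near that of all genes under normexp, quantile normalization and cyclic loess. The member median lay above that of all genes by 0.06, 0.003 and 0.04. Scaling to spike-in RNAs moved the median of all genes to 0.54 and that of the members to 0.54 as well. The authors' deposited normalized values gave 0.12 and 0.12. Both, like median scaling, shift every gene nearly alike, so they could not change the gap between members and all genes. Directions of single genes are therefore relative to the bulk of genes. The member median minus that of all genes lay between -0.02 and 0.06 under 10 alternatives and was 0.16 when dim probes were let in, which lowered the median of all genes to -0.16.

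**Figure D4:**
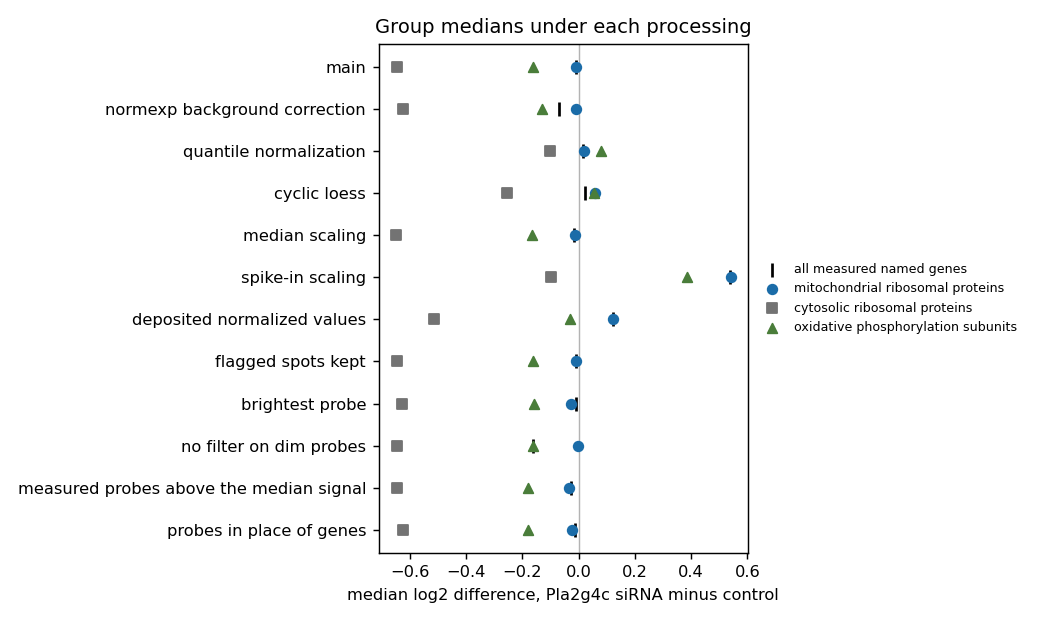
Median log2 difference of 4 groups of genes (symbols) under the main processing and 11 alternatives (rows). The circle of the mitochondrial ribosomal proteins lies within 0.06 of the tick of all genes except with no filter on dim probes, where it is 0.16 to the right, and the square of the cytosolic ribosomal proteins lies to its left by 0.12 to 0.65.

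Motif matches were more frequent in members' promoters than in protein-coding promoters at large. RefSeq promoter entries, which span 250 bases before to 50 after the start, were matched for 54 members. The ETS motif CCGGAAG was found in 19 of them (35.2%), against 11.2% of 19005 protein-coding promoters, counting both strands. The NRF1 short motif TGCGCA was found in 16 (29.6%, against 9.18%), the NRF1 core GCATGCG, which can overlap the short motif, in 6 (11.1%, against 4.13%), and the YY1 motif AGATGGC in 12 (22.2%, against 6.79%). At least 1 of these was present in 36 members (66.7%), against 25.3% of all promoters. Promoters of 59 cytosolic ribosomal proteins also held them more often than all promoters did, with 30.5% for ETS, 16.9% for the NRF1 short motif, 8.47% for the NRF1 core and 11.9% for YY1. Measured members with the ETS motif had a median difference of 0.08 and those without it of -0.08. For the NRF1 short motif these medians were -0.03 and -0.05, for the NRF1 core 0.10 and -0.05, and for YY1 -0.16 and -0.03. A match is a run of letters and not a shown binding site.

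Many of these promoters also face another gene. Of the 54 members, 16 (29.6%) had a protein-coding neighbour on the opposite strand that starts within 1000 bases and runs the other way, against 7.48% of protein-coding genes. Both genes were measured in 12 such pairs, and in 9 of them both differences had the same sign, against 50.6% of 389 such pairs overall. In 3 of these 12 pairs both differences were smaller than their errors. Mrpl49 (-0.46) faces Fau, which encodes a ubiquitin-like fusion with the cytosolic ribosomal protein S30, and Fau differed by -0.42 ± 0.20. Mrpl32 (-0.43 ± 0.20) faces the proteasome subunit gene Psma2 (-0.29 ± 0.20), and Mrps18b (0.30) faces Ppp1r10 (0.45 ± 0.20). Mrps11 (-0.31 ± 0.20) and Mrpl46 (0.01 ± 0.20) face each other.

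Mrps27 was the exception in size. Its neighbour Ptcd2, which encodes a mitochondrial pentatricopeptide repeat protein and begins on the far side of the 63 bases shown above, had signals of 280.7 and 438.3 and a difference of 0.27 ± 0.20. One gene of this pair was 2.65-fold lower while the other was above 0. Mrpl54 (-0.36 ± 0.20) and Apba3 (0.04 ± 0.20) were also of unlike sign, as were Mrps11 and Mrpl46.

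**Figure D5:**
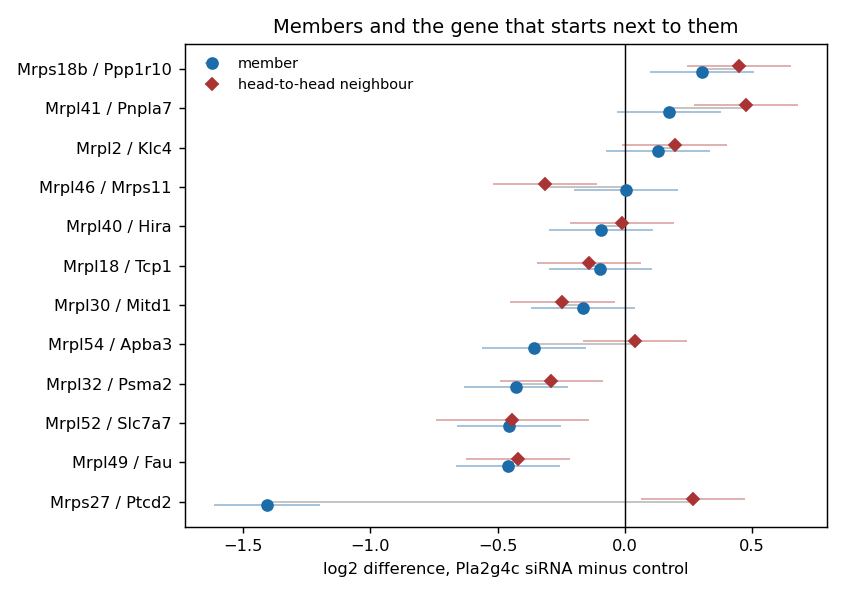
Log2 difference of 12 members (circles) and of the protein-coding gene that starts next to each on the opposite strand (diamonds), with the scanner software's error as bars. In 9 rows both symbols lie on the same side of 0, and the row of Mrps27 and Ptcd2 holds the widest gap, from -1.41 to 0.27.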

How the data were processed

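Per the labels, Cy3-labelled RNA of each sample was hybridised to 1 one-colour Agilent array. The authors' scanner files hold linear intensities. Per the file headers they come from Feature Extraction 10.10.1.1 (the submitters' processing notes say 10.10), background-subtracted and detrended but not normalized between arrays. The deposited flags (0 or 1) and the authors' deposited normalized intensities, whose scaling constant no source here states, were used as deposited. Spots with an outlier flag on either array were left out (466 and 381 gene spots flagged). The log2 processed signal was taken relative to each array's 75th percentile. Spots were averaged per probe, and measured probes per gene. Symbols came from RefSeq accessions (GRCr8) and covered 18006 of 30366 probes. With 1 array per group nothing was tested. Precision is limited by the array number and, for dim probes, by the signal over background. The members, the gene lists, the naming rule (both ends of each subunit and list, members past 1.5-fold or with a bound, and those of highest and lowest signal) and the alternatives were chosen with earlier results of these data known. Values were described as a 1.5-fold count, beside the same count over all measured named genes. Normexp used the median spot signal with an offset of 50. The steps were tested on simulated data. Software was Python 3.11.15 with scipy 1.17.1, matplotlib 3.10.9, pandas 2.3.3 and numpy 2.4.6, and limma 3.58.1 under R 4.3.3. A planned relation to protein length was not run. The neighbour comparison, the genes named with it and the choice of promoters shown were added after the values were seen.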

Additional observations from a re-analysis of the deposited data

How the results depend on the processing

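Median scaling, flagged spots kept, the brightest probe, measured probes above the median signal, probes in place of genes and normexp each left the medians within the software error and the counts of members within 1.5 times. Members at least 1.5-fold lower numbered 4 (10.3% of all genes), and 2 under quantile normalization (9.04%), 1 under cyclic loess (8.77%), 2 in the deposited values (6.61%), 1 under spike-in scaling (2.07%), 1 at 2-fold (3.05%) and 12 at 1.3-fold (18.4%). Members at least 1.5-fold higher numbered 0 (8.69% of all genes), and 1 under quantile normalization (9.04%), cyclic loess (9.08%), the deposited values (13%) and no filter on dim probes (8.42%), 28 under spike-in scaling (45.3%) and 5 at 1.3-fold (16.5%). Spike-in scaling, over 7 spike-in probes, put 6 members below 0, against 11.3% of all genes, and gave medians of 0.54 for all members, 0.52 for the large and 0.55 for the small subunit. Of the 22 members named by the rule with a measured value, 22 stayed within their software error under cyclic loess, quantile normalization and the deposited values, 21 under normexp (Mrps27 excepted) and 0 under spike-in scaling, which shifts every gene alike. Mrps27 was at -0.86 there and between -1.10 and -1.43 under the other settings that measured it. No paired analysis was possible because each group has 1 array. Signal over background limits the dim members, Mrpl47 and Mrps27 among them.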
